A study of Homo sapiens with 12 samples.

Results

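The MYC and MAX network is a set of 10 transcription factor genes here: MYC, MYCN, MYCL, MAX, MXD1, MXD3, MXD4, MXI1, MNT and MGA. They were chosen by symbol from the deposited table of 63241 genes, in which each of the 10 symbols had 1 row, and all 10 passed the low-count filter that left 15614 genes for testing. Their transcripts were counted in 2 human testicular germ cell tumour lines. 2102 EP stands for embryonal carcinoma, whose cells resemble pluripotent stem cells, and TCam-2 for seminoma, whose cells resemble primordial germ cells. Cells of each line, labelled wild type, received 15 µM I-BRD9 for 24 h, an inhibitor of the bromodomain in BRD9, a subunit of a SWI/SNF chromatin remodelling complex, or its solvent DMSO. There were 4 groups of 3 libraries, given as biological replicates. The media differed (DMEM for 2102 EP, RPMI for TCam-2), so line and medium cannot be told apart. Nothing says that the replicates came from separate cultures, so p-values measure the spread between these libraries, which may be technical.

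MYC, MYCN and MYCL are basic helix-loop-helix leucine zipper proteins that bind DNA only as dimers with MAX, mostly at the E-box CACGTG, and activate genes of growth, ribosome production and metabolism. MXD1, MXD3, MXD4, MXI1 (also called MXD2) and MNT dimerise with the same MAX and bring SIN3 and histone deacetylases to the same sites, and MGA joins MAX to a Polycomb complex, PRC1.6, that silences germ line genes. The balance of these partners is known to shift from MYC towards several, though not all, MXD proteins as cells stop dividing and differentiate. MYCN is the MYC gene best known from embryonic tissue.

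Libraries held between 7290335 and 10053366 estimated counts, and between 20858 and 22062 genes had a count. The libraries read the polyadenylated 3′ ends of transcripts, so that a count does not grow with transcript length. Levels below are CPM (a gene's count relative to the TMM-scaled total of its library), and 3 counts in 1 library equal 0.297 to 0.409 CPM. The lines expressed their defining markers. The 5 embryonal carcinoma markers SOX2, GDF3, DNMT3B, TDGF1 and PRDM14 summed to between 1628 and 1713 CPM per library in 2102 EP with DMSO and to between 144 and 149 CPM in TCam-2 with DMSO. The 5 seminoma markers SOX17, TFAP2C, PRAME, PDPN and KIT summed to between 154 and 237 CPM in 2102 EP with DMSO, where SOX17 and PRAME averaged 0.0774 and 0.0786 CPM, and between 1456 and 1963 CPM in TCam-2 with DMSO. With I-BRD9 the embryonal carcinoma markers summed to between 442 and 490 CPM in 2102 EP and between 61.9 and 75.1 CPM in TCam-2, and the seminoma markers to between 1231 and 1397 CPM in TCam-2. Most of the seminoma sum was TFAP2C (1208 and 994 CPM in TCam-2 with DMSO and I-BRD9), while SOX17 went from 193 to 45.3 CPM and KIT from 26.5 to 49.4 CPM. Markers of both tumour types were lower with I-BRD9 too, with NANOG at 175 and 19.3 CPM in 2102 EP and 524 and 12.8 CPM in TCam-2, and POU5F1 at 386 and 186 CPM and at 695 and 323 CPM. Markers of fibroblasts, blood and endothelium summed to at most 23.0 CPM in any library, most of it COL1A1, and HBB and CD3E were at 0 in all 12 libraries.

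The promoters below belong to the 3 members that changed with I-BRD9 in both lines and whose window lies at least in part outside the transcribed gene. They are RefSeq windows on GRCh38.p14, 5′ to 3′ on the gene's strand, of up to 250 bases before the start, cut where the gene begins in GENCODE 29. Capitals mark a match to the E-box CACGTG, which reads the same on both strands, or to TTTGGCGC or TTTCCCGC, core forms of E2F sites, on either strand. The MYCN window is chr2:15940300-15940549 on the plus strand, the MXD4 window chr4:2262295-2262359 on the minus strand and the MXI1 window chr10:110207355-110207604 on the plus strand.
MYCN: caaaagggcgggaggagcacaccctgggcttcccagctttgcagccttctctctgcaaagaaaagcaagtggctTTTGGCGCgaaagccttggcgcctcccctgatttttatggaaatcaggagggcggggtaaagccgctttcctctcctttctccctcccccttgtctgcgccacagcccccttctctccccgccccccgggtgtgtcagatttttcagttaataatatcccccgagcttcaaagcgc
MXD4: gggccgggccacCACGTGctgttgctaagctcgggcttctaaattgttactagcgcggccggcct
MXI1: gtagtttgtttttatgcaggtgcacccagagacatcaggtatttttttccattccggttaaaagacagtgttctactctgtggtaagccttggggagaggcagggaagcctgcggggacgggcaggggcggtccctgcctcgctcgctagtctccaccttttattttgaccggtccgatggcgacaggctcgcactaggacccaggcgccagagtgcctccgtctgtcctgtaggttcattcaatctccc
The MYCN window holds 1 E2F-type match, which begins 176 bases before the start, and no E-box. The 65 bases of MXD4 hold 1 E-box, which begins 238 bases before the RefSeq start. The MXI1 window holds neither sequence, nor do the 250-base windows at its other 2 starts. Of 35116 windows of 250 bases before RefSeq starts, 6.34% held CACGTG and 1.93% held an E2F-type match. Windows of MNT and MGA, which did not change detectably with I-BRD9, hold such matches too. The MNT window has an E-box that begins 193 bases before the start, and an MGA window has an E2F-type match 65 bases before. The window of MLX, a gene of the parallel arm described below, has an E-box that begins 50 bases before the start. MLX was lower with I-BRD9 in TCam-2. A match describes the letters only. Binding was not measured.

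With I-BRD9 MYCN and MYCL fell and MXD4 and MXI1 rose in both lines, while MAX, the shared partner, and MYC, MXD1, MXD3, MNT and MGA did not pass the test in either. In 2102 EP MYCN fell 3.22-fold and MXD4 rose 3.92-fold. In TCam-2 MYCN fell 1.73-fold and MXD4 rose 1.76-fold. The test was edgeR's quasi-likelihood test on all genes with adjusted p under 0.05. By that test 4 of the 10 members changed in 2102 EP, where 36.8% of all genes tested did, and 4 of 10 in TCam-2, where 31.8% did. The share of members called was therefore near that of all genes, and what follows concerns the single genes and their directions. In bulk RNA, fewer cells of a type and less RNA per cell cannot be told apart. The summed embryonal carcinoma markers, NANOG and POU5F1 were lower with I-BRD9 in both lines, as given above, and their part in the result was not tested.

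**Figure D1:**
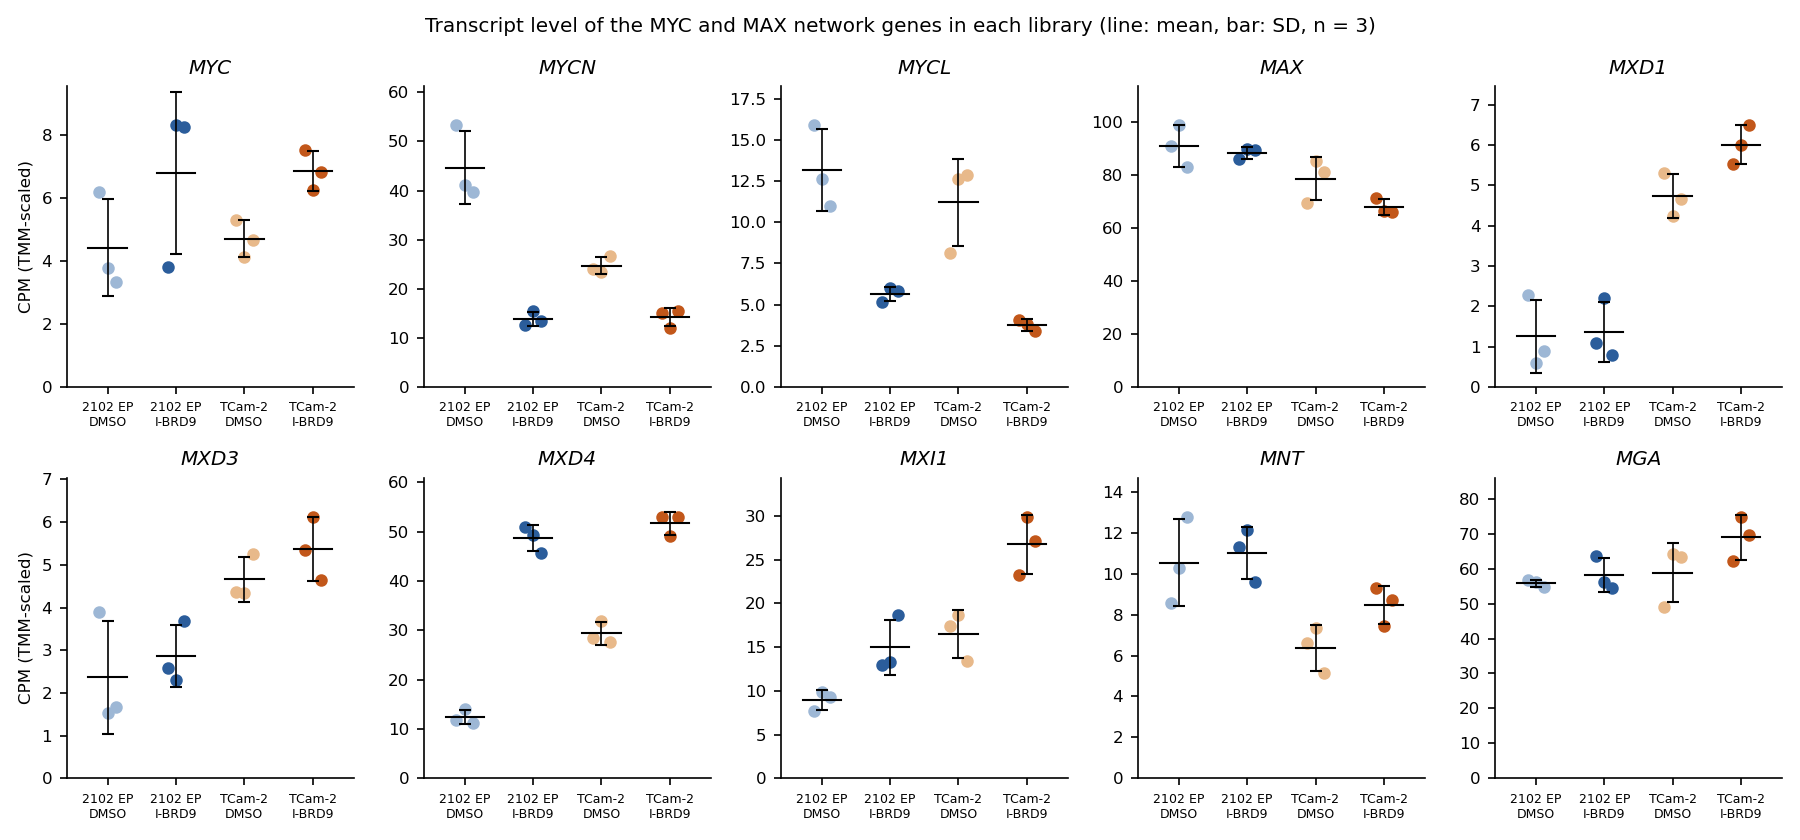
Transcript level of each of the 10 genes, in CPM on a linear axis from 0, in the 3 libraries of each group (points), with the mean (line) and SD (bar). MYCN and MYCL lie lower and MXD4 and MXI1 higher in every I-BRD9 library than in any DMSO library of the same line, and the 2 I-BRD9 groups of MYCN and of MXD4 overlap.

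MYCN (ENSG00000134323, chromosome 2, 15940564 to 15947007, plus strand, GRCh38) was the MYC gene with the most transcripts in all 4 groups. In 2102 EP it stood at 53.3, 41.1 and 39.6 CPM with DMSO (replicates 1, 2 and 3) and at 12.5, 15.4 and 13.5 CPM with I-BRD9. The lowest DMSO library lay far above the highest I-BRD9 library. The mean went from 44.7 ± 7.50 to 13.8 ± 1.47 CPM (SD, n = 3), or -1.69 ± 0.14 as a log2 fold change with its SE (edgeR adjusted p = 4.21e-09). In TCam-2 it stood at 24.0, 23.5 and 26.7 CPM with DMSO and at 15.1, 12.0 and 15.5 CPM with I-BRD9, again without overlap. There the log2 fold change was -0.79 ± 0.15 (edgeR adjusted p = 0.000199). The fall was smaller in TCam-2 by 0.90 ± 0.20 on the log2 scale (edgeR adjusted p of the difference 0.00416).

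The lines differed in MYCN with DMSO and not detectably with I-BRD9. With DMSO the level in TCam-2 was lower than in 2102 EP by a log2 fold change of -0.86 ± 0.14 (edgeR adjusted p = 1.05e-05). With I-BRD9 the log2 difference was 0.04 ± 0.15, with a 95% interval of -0.31 to 0.39 (edgeR adjusted p = 0.836). The order of levels was therefore 2102 EP with DMSO, TCam-2 with DMSO, and then both I-BRD9 groups, which did not differ beyond their spread.

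The antisense gene MYCNOS overlaps MYCN by 1686 bases, and no use of strand is stated for the counting, so that reads of the overlap cannot be assigned with certainty. MYCNOS was far lower, at 3.35 ± 1.06 CPM in 2102 EP with DMSO and 1.17 ± 0.0726 CPM with I-BRD9, and at 1.46 ± 0.388 and 0.392 ± 0.245 CPM in TCam-2. It fell as well, with log2 fold changes of -1.50 ± 0.43 in 2102 EP (edgeR adjusted p = 0.00871) and -1.82 ± 0.53 in TCam-2 (0.0112). The TCam-2 value rests on 38 counts over the DMSO group and 11 over the I-BRD9 group, whose mean lies near the level of 3 counts. Reads shared with another gene reached the MYCN count in 1 of 12 libraries.

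MYCL (ENSG00000116990, chromosome 1, 39895426 to 39902256, minus strand) had 15.9, 12.6 and 10.99 CPM in 2102 EP with DMSO and 5.18, 6.01 and 5.80 CPM with I-BRD9. In TCam-2 it had 8.14, 12.6 and 12.9 CPM with DMSO and 4.05, 3.84 and 3.36 CPM with I-BRD9. All I-BRD9 libraries lay below all DMSO libraries in both lines, and TCam-2 DMSO replicate 1 was the lowest of the controls. The log2 fold change was -1.21 ± 0.21 in 2102 EP (edgeR adjusted p = 8.62e-05) and -1.57 ± 0.22 in TCam-2 (7.64e-06). These falls were not shown to differ between the lines (difference -0.36 ± 0.30, 95% interval -1.06 to 0.34, edgeR adjusted p = 0.502). With DMSO the lines did not differ detectably in MYCL (-0.23 ± 0.20, edgeR adjusted p = 0.317). With I-BRD9 TCam-2 was lower (-0.59 ± 0.23, 0.0304). That call was lost with limma voom (0.0669) and without I-BRD9 replicate 2 or 3 of either line (0.0574 to 0.0903).

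MYC itself (ENSG00000136997, chromosome 8), the founding member of the family, was scarce in both lines. It had 6.18, 3.77 and 3.32 CPM in 2102 EP with DMSO and 3.82, 8.31 and 8.26 CPM with I-BRD9. The groups overlapped, with DMSO replicate 1 high and I-BRD9 replicate 1 low. In TCam-2 it had 5.31, 4.14 and 4.65 CPM with DMSO and 7.51, 6.25 and 6.84 CPM with I-BRD9, without overlap. The log2 fold changes, 0.63 ± 0.28 and 0.55 ± 0.28, did not pass the test (edgeR adjusted p = 0.0889 and 0.145). In 2102 EP MYC was called higher without I-BRD9 replicate 1 (0.91, edgeR adjusted p = 0.00832) or without DMSO replicate 1 (0.96, 0.0258). At 112 to 187 counts over a group of 3 libraries, the 95% interval for MYC ran from -0.03 to 1.28 in 2102 EP and from -0.10 to 1.20 in TCam-2.

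The summed level of the 3 MYC genes was lower in the I-BRD9 libraries, and the share of MYC in it larger. Their sum was 62.3 ± 11.5 CPM in 2102 EP with DMSO and 26.3 ± 4.25 CPM with I-BRD9 (SD, n = 3). In TCam-2 it was 40.6 ± 3.41 and 24.8 ± 2.42 CPM. MYCN supplied 71.9 ± 1.41% of that sum in 2102 EP with DMSO, 53.0 ± 4.73% with I-BRD9, 60.9 ± 2.90% in TCam-2 with DMSO and 57.1 ± 3.03% with I-BRD9. The share of MYC was 6.97 ± 1.08% and 25.2 ± 6.56% in 2102 EP, and 11.7 ± 2.19% and 27.7 ± 0.942% in TCam-2, with DMSO and I-BRD9. The share of MYCL was 21.1 ± 0.774% and 21.8 ± 2.02% in 2102 EP, and 27.4 ± 5.03% and 15.2 ± 2.16% in TCam-2. A larger share of MYC need not mean more MYC transcript, since MYCN and MYCL fell. The change of MYC itself did not pass the test in either line. These sums and shares are descriptions over chosen genes and were not tested. They assume that the 3 transcripts are primed and counted alike, which was not tested.

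MAX (ENSG00000125952, chromosome 14), the shared dimerisation partner of the other members, ranged from 83.0 to 98.7 CPM in 2102 EP with DMSO and from 85.8 to 89.5 CPM with I-BRD9. The 95% interval of its log2 fold change, -0.25 to 0.17, leaves out changes of the size seen for MYCN and MXD4. In TCam-2 it ranged from 69.5 to 85.1 CPM with DMSO and from 66.0 to 71.3 CPM with I-BRD9 (-0.21 ± 0.09, edgeR adjusted p = 0.0885), which was called without DMSO replicate 1 (-0.30, 0.0260). With DMSO the lines did not pass the test for MAX (-0.21 ± 0.09, edgeR adjusted p = 0.0537), but did under 8 of 20 alternatives. With I-BRD9 MAX was lower in TCam-2 than in 2102 EP (-0.38 ± 0.09, edgeR adjusted p = 0.00117). MAX shares its locus with FNTB on the opposite strand.

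MXD4 (ENSG00000123933, chromosome 4, 2247432 to 2262294, minus strand), a MAX partner that represses, changed more than any other of the 10 genes in 2102 EP. It had 11.9, 14.0 and 11.2 CPM with DMSO and 51.0, 49.4 and 45.7 CPM with I-BRD9. All treated libraries lay far above all controls (log2 fold change 1.97 ± 0.12, edgeR adjusted p = 1.01e-11). In TCam-2 MXD4 had 28.4, 31.9 and 27.7 CPM with DMSO and 52.9, 49.0 and 53.0 CPM with I-BRD9. The rise there, 0.81 ± 0.11 (edgeR adjusted p = 3.06e-06), was smaller by 1.16 ± 0.16 on the log2 scale (difference -1.16, edgeR adjusted p = 1.60e-05).

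As with MYCN, in the opposite direction, the lines differed in MXD4 with DMSO and not detectably with I-BRD9. TCam-2 was higher by 1.24 ± 0.12 with DMSO (edgeR adjusted p = 5.02e-09). With I-BRD9 the log2 difference was 0.09 ± 0.10 with a 95% interval of -0.15 to 0.32 (edgeR adjusted p = 0.486). The levels ran from 2102 EP with DMSO at 12.4 ± 1.45 CPM over TCam-2 with DMSO at 29.4 ± 2.28 CPM to the 2 I-BRD9 groups at 48.7 ± 2.69 and 51.6 ± 2.27 CPM. These comparisons share the DMSO and I-BRD9 libraries with those above, so the matching levels and the difference between the responses are not independent of each other.

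MXI1 (ENSG00000119950, chromosome 10, 110207605 to 110287365, plus strand), another repressing MAX partner, had 7.66, 9.90 and 9.33 CPM in 2102 EP with DMSO and 13.0, 13.3 and 18.6 CPM with I-BRD9. In TCam-2 it had 17.5, 18.7 and 13.5 CPM with DMSO and 23.2, 29.9 and 27.1 CPM with I-BRD9. The groups did not overlap in either line. The log2 fold changes were 0.74 ± 0.18 (edgeR adjusted p = 0.00277) and 0.69 ± 0.17 (0.00288), with a difference of -0.05 ± 0.25 and a 95% interval of -0.62 to 0.52 (0.932). TCam-2 was higher than 2102 EP by 0.89 ± 0.18 with DMSO (edgeR adjusted p = 0.000207) and by 0.83 ± 0.17 with I-BRD9 (0.000192). The ranges of treated 2102 EP and untreated TCam-2 overlapped.

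**Figure D2:**
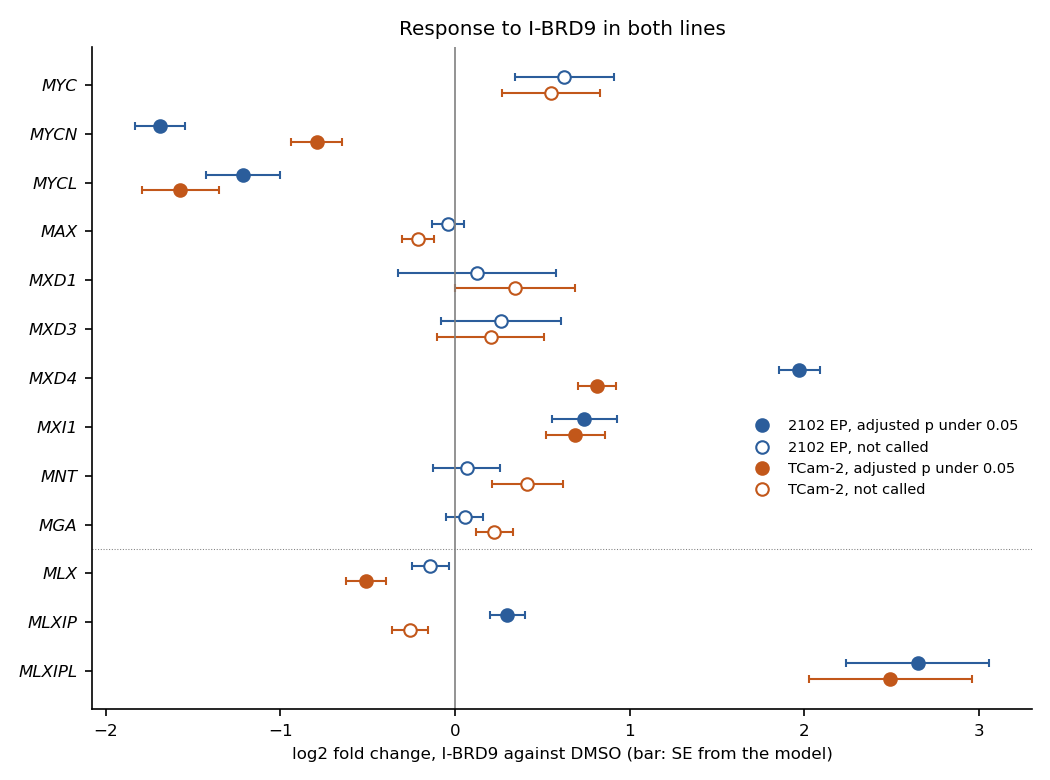
Log2 fold change of I-BRD9 against DMSO (points) with its SE from the model (bars) for the 10 members and, under the dotted line, the 3 genes of the MLX arm, in 2102 EP and TCam-2. Filled points passed an adjusted p of 0.05. MYCN and MYCL lie left of 0 and MXD4, MXI1 and MLXIPL right of 0 in both lines.

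MXD1 and MXD3, the other MXD genes, were low in 2102 EP, at 0.589 to 2.29 CPM and 1.53 to 3.89 CPM over the 6 libraries of that line. In TCam-2 they had 4.25 to 6.49 and 4.35 to 6.13 CPM. TCam-2 was higher in MXD1 by 1.89 ± 0.40 with DMSO (edgeR adjusted p = 0.0003) and 2.10 ± 0.39 with I-BRD9 (6.35e-05). MXD3 was higher by 0.97 ± 0.33 with DMSO (edgeR adjusted p = 0.0146), a call lost without 2102 EP DMSO replicate 2 (0.0870) or 3 (0.0719) or TCam-2 DMSO replicate 3 (0.0513). With I-BRD9 it was higher by 0.91 ± 0.32 (edgeR adjusted p = 0.0173), but not without I-BRD9 replicate 2 of 2102 EP (0.0823) or of TCam-2 (0.0658). Neither gene passed the test for I-BRD9, and with 32.0 to 75.0 counts over a 2102 EP group, the 95% interval for MXD1 there ran from -0.92 to 1.17. MXD1 lies over SNRNP27 and MXD3 over RAB24 on the same strand in GENCODE 29, so part of their reads is uncertain. MXD3 also overlaps PRELID1 on the opposite strand by 3186 bases, and PRELID1 had 29952 counts over the 12 libraries.

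MNT and MGA did not pass the test for I-BRD9. MNT, a repressor present in most dividing cells, ranged from 8.58 to 12.8 CPM in 2102 EP with DMSO and from 9.59 to 12.1 CPM with I-BRD9, which overlap. In TCam-2 it ranged from 5.14 to 7.32 CPM and from 7.45 to 9.29 CPM, which do not (0.41 ± 0.20, edgeR adjusted p = 0.130). It was lower in TCam-2 than in 2102 EP with DMSO (-0.72 ± 0.20, edgeR adjusted p = 0.00356). MGA ranged from 54.4 to 63.5 CPM over the 6 libraries of 2102 EP and from 49.1 to 74.8 CPM over those of TCam-2. Its log2 fold changes were 0.06 ± 0.11 and 0.23 ± 0.11 (edgeR adjusted p = 0.728 and 0.110). With I-BRD9 it was called higher in TCam-2 than in 2102 EP by 0.25 ± 0.11 (edgeR adjusted p = 0.0474), a call lost under 14 of 20 alternatives (0.0544 to 0.196).

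Between the lines, 6 of 10 members were called with DMSO, where 62.6% of all genes were, and 6 of 10 with I-BRD9, where 62.2% were. With DMSO MXD1, MXD3, MXD4 and MXI1 were higher in TCam-2 and MYCN and MNT lower, where 31.7% of all genes were called higher and 30.8% lower. With I-BRD9 MXD1, MXD3, MXI1 and MGA were higher in TCam-2 and MYCL and MAX lower, where 31.1% were called higher and 31.1% lower. The count with I-BRD9 was 3 without replicate 2 of either I-BRD9 group. The 4 MXD genes summed to 25.0 ± 1.601 CPM in 2102 EP with DMSO, 67.9 ± 0.840 CPM with I-BRD9, 55.3 ± 4.09 CPM in TCam-2 with DMSO and 89.8 ± 2.40 CPM with I-BRD9 (SD, n = 3). In 2102 EP the sum of the MYC genes lay above that of the MXD genes in all 3 DMSO libraries and below it in all 3 I-BRD9 libraries. In TCam-2 it lay below in all 6 libraries. Most of each change in these sums came from a single gene, MYCN (44.7 to 13.8 CPM in 2102 EP) or MXD4 (12.4 to 48.7 CPM). Whether these 7 transcripts are primed and counted alike was not tested, so the order of the sums is a description of counts. Over the 10 genes, 4 of 10 did not overlap between I-BRD9 and DMSO in 2102 EP, where 46.3% of all genes did not, and 7 of 10 in TCam-2, where 45.7% did not. Between the lines 6 of 10 did not overlap with DMSO and 6 of 10 with I-BRD9, where 67.6% and 66.3% of all genes did not. In the difference between the responses 2 members were called, where 13.1% of all genes were. These were MYCN higher and MXD4 lower, where 5.9% of all genes were called higher and 7.19% lower.

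**Figure D3:**
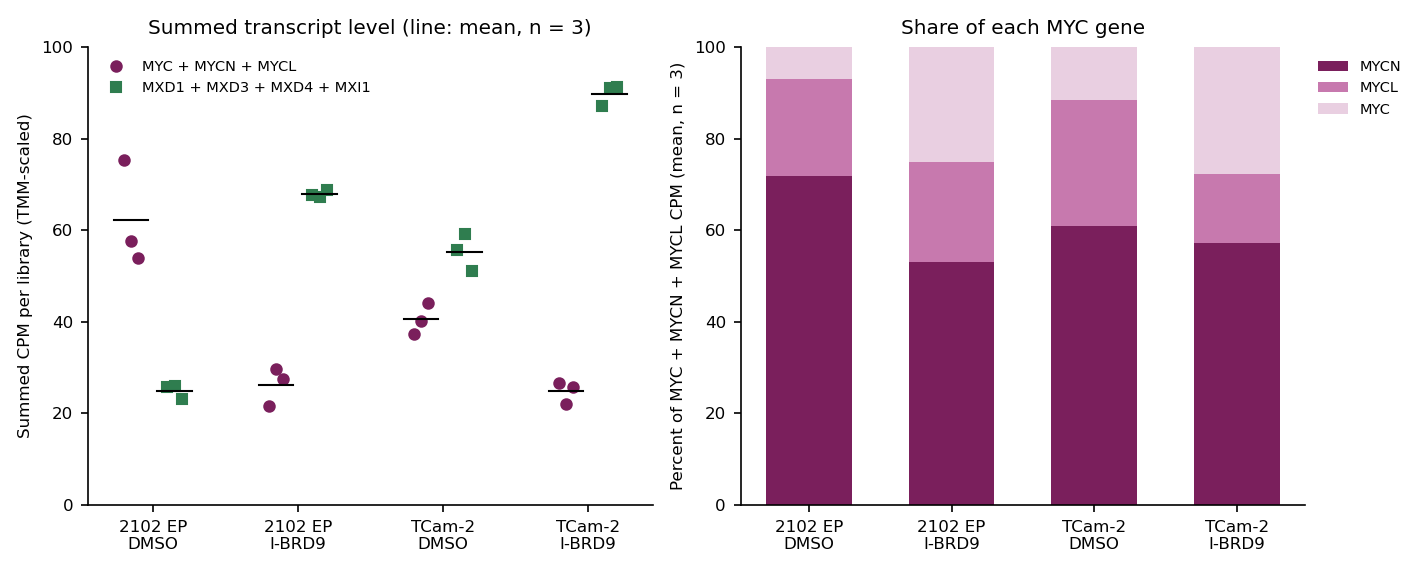
Left, summed CPM of MYC, MYCN and MYCL (circles) and of MXD1, MXD3, MXD4 and MXI1 (squares) in each library, with the mean of 3 (line). Right, mean share of MYCN, MYCL and MYC in the sum of these 3 genes, in percent. In 2102 EP the sums change order with I-BRD9, from 62.3 against 25.0 CPM to 26.3 against 67.9 CPM. The mean share of MYC there is 6.97% with DMSO and 25.2% with I-BRD9. MYCN and MYCL fell there, and MYC itself did not pass the test.

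A parallel arm of the network uses MLX in place of MAX, with the glucose-sensing factors MLXIP (MondoA) and MLXIPL (ChREBP). MLXIPL rose in both lines, from 1.69 ± 0.725 to 10.8 ± 3.37 CPM in 2102 EP and from 0.894 ± 0.799 to 5.06 ± 0.533 CPM in TCam-2. Its log2 fold changes were 2.65 ± 0.41 (edgeR adjusted p = 5.66e-05) and 2.49 ± 0.47 (0.000433), from 43.0 and 23.0 counts over the DMSO groups. MLX fell in TCam-2 (-0.51 ± 0.12, edgeR adjusted p = 0.00156) and did not pass in 2102 EP (-0.14 ± 0.11, 0.317). MLX overlaps PSMC3IP on the opposite strand. MLXIP was called higher in 2102 EP (0.30 ± 0.10, edgeR adjusted p = 0.0227) and not called in TCam-2 (-0.26 ± 0.10, 0.0565; called under 5 of 20 alternatives, 0.0324 to 0.0446), and the difference was -0.56 ± 0.14 (0.0103). The call in 2102 EP was lost without I-BRD9 replicate 1 (edgeR adjusted p = 0.0599) or 2 (0.0552) and without DMSO replicate 1 (0.119) or 2 (0.0735).

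Of 4 targets of the MLX arm, TXNIP, an inhibitor of glucose uptake and of thioredoxin, rose in both lines. It went from 15.8 ± 2.37 to 29.0 ± 1.86 CPM in 2102 EP (0.87 ± 0.15, edgeR adjusted p = 8.64e-05) and from 5.40 ± 0.612 to 20.8 ± 3.06 CPM in TCam-2 (1.94 ± 0.17, 7.61e-09). ARRDC4 (2.25 ± 0.62, edgeR adjusted p = 0.0076) and KLF10 (0.85 ± 0.24, 0.00945) rose in TCam-2 and did not pass in 2102 EP, with ARRDC4 at 7 counts over the TCam-2 DMSO group. ARRDC2 fell in 2102 EP (-1.27 ± 0.35, edgeR adjusted p = 0.00626). The difference between the lines was called for TXNIP (1.07 ± 0.23, edgeR adjusted p = 0.00225) and KLF10 (1.29 ± 0.34, 0.0136), and not for ARRDC4 (0.389) or ARRDC2 (0.0724). The count of 2 was 1 without TCam-2 I-BRD9 replicate 1.

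Of the listed genes that MYC proteins are known to activate, more were called lower with I-BRD9 in TCam-2 than in 2102 EP. Of 18 ribosome and nucleolus genes, 5 were called lower in 2102 EP and 15 in TCam-2, and none higher, where 18.6% and 16.5% of all genes were called lower. The 5 in 2102 EP lie near that share and ranged from 3 to 7 under the alternatives. The shares of all genes were not matched for expression level. The median log2 fold change was -0.16 and -0.47, against 0.00 and 0.01 over all genes tested. In 2102 EP the 5 were NOP16 (-0.85 ± 0.13), WDR12 (-0.61 ± 0.10), PPAN (-0.36 ± 0.09), RRP9 (-0.31 ± 0.10) and NOLC1 (-0.21 ± 0.07), all factors of ribosome assembly, and 3 were called once replicate 2 of either group was left out. In TCam-2 the largest falls were those of NOP16 (-0.89 ± 0.13), RRP9 (-0.87 ± 0.10), MRTO4 (-0.63 ± 0.11) and PPAN (-0.55 ± 0.09). NCL and FBL, nucleolar proteins of high abundance, fell in TCam-2 by 0.28 and 0.28 on the log2 scale. The difference between the lines was called for 1 of 18, RRP9 (-0.56 ± 0.14, edgeR adjusted p = 0.0104), and for 1 to 3 of 18 under the alternatives, so a difference between the lines was not shown for most of the list.

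Of 20 metabolic and growth targets of MYC, 9 were called lower and 1 higher in 2102 EP and 12 lower and none higher in TCam-2, with medians of -0.29 and -0.51 against 0.00 and 0.01 over all genes. Of all genes 18.6% and 16.5% were called lower and 18.2% and 15.3% higher. In 2102 EP the largest called falls were those of HSPE1 (-1.05 ± 0.23), a mitochondrial chaperonin, TFAP4 (-0.85 ± 0.15), a transcription factor, SHMT1 (-0.57 ± 0.22) and SHMT2 (-0.45 ± 0.08), enzymes of 1-carbon metabolism. In TCam-2 they were those of TERT (-1.73 ± 0.33), the catalytic subunit of telomerase, NME1 (-0.81 ± 0.07), a nucleotide kinase, SHMT2 (-0.71 ± 0.08) and HSPE1 (-0.71 ± 0.22). TERT went from 7.30 to 6.30 CPM in 2102 EP (-0.21 ± 0.28, edgeR adjusted p = 0.587) and from 4.76 to 1.44 CPM in TCam-2, and the difference passed the test (-1.52 ± 0.43, 0.0218), as did that of NME1 (-0.55 ± 0.10, 0.000498). TFRC, the transferrin receptor, was the 1 called higher in 2102 EP (0.22 ± 0.09, edgeR adjusted p = 0.0488), and no gene of the list was called higher there under 16 of the 20 alternatives. ODC1 and CAD, classic MYC targets of polyamine and pyrimidine synthesis, did not pass in either line.

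Of 10 genes listed as repressed by MYC, 6 were called higher and 1 lower in 2102 EP and 5 higher and none lower in TCam-2, where 18.2% and 15.3% of all genes were called higher. The medians were 0.91 and 0.62. CDKN1C, an inhibitor of cyclin-dependent kinases, rose from 31.6 to 262 CPM in 2102 EP (3.05 ± 0.10) and from 11.3 to 99.0 CPM in TCam-2 (3.14 ± 0.11). ID2, an inhibitor of helix-loop-helix factors, rose by 2.03 ± 0.09 and 1.71 ± 0.08. Repression of ID2 by MYC is not settled, and the counts and medians above include it. CDKN1A rose in 2102 EP (1.12 ± 0.14) and did not pass in TCam-2 (-0.07 ± 0.15), and the difference passed the test (-1.19 ± 0.21, edgeR adjusted p = 0.000271). NDRG1 rose by 1.40 ± 0.25 and 0.63 ± 0.19, and NDRG4 in TCam-2 (1.39 ± 0.20), with a called difference of 1.01 ± 0.27 (edgeR adjusted p = 0.0143) that was lost once TCam-2 replicate 3 of I-BRD9 or 2 of DMSO was left out. GADD45A rose in both lines (0.37 ± 0.12 and 0.62 ± 0.11) and NDRG2 in 2102 EP (0.82 ± 0.14). CDKN1B was the 1 gene called lower, in 2102 EP (-0.54 ± 0.15).

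**Figure D4:**
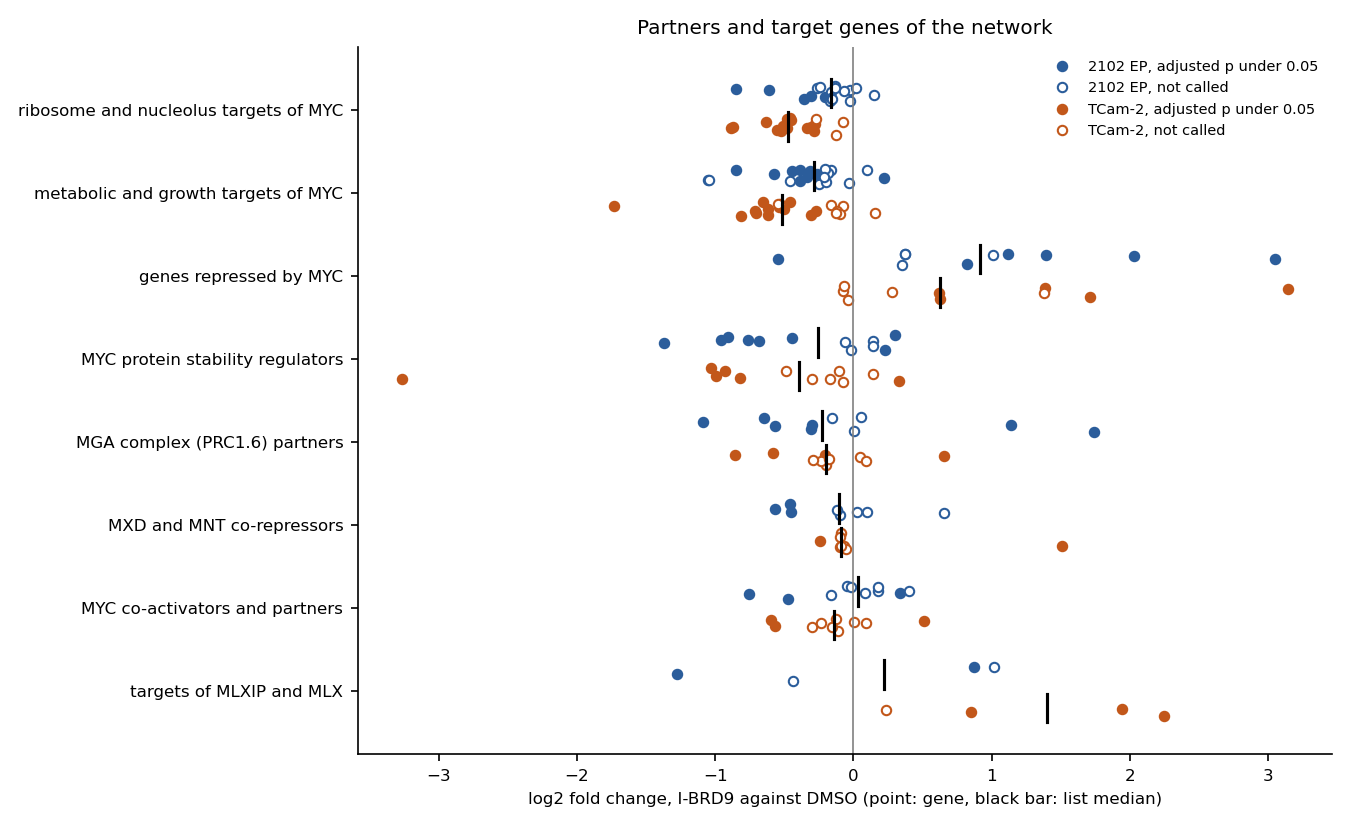
Log2 fold change of I-BRD9 against DMSO for each gene of 8 lists of partners and targets (points; filled where adjusted p was under 0.05), in 2102 EP (blue) and TCam-2 (orange), with list medians (black bars). In TCam-2, 15 of 18 ribosome and nucleolus targets are filled and left of 0.

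Regulators of MYC protein stability moved in both directions. Of 12 kinases, ligases and other regulators, 6 were called lower and 2 higher in 2102 EP, and 5 lower and 1 higher in TCam-2. Of all genes 18.6% and 16.5% were called lower and 18.2% and 15.3% higher, so the counts of rises were not above those shares. The 2 called higher in 2102 EP ranged from 0 to 2 under the alternatives. PIM2, a kinase that stabilises MYC, went from 309 to 119 CPM in 2102 EP (-1.37 ± 0.10, edgeR adjusted p = 1.66e-10) and from 505 to 52.6 CPM in TCam-2 (-3.26 ± 0.10, 2.42e-16), with a called difference of -1.89 ± 0.14 (1.18e-09). AURKA, which protects MYCN from degradation, fell by 0.96 ± 0.08 and 0.99 ± 0.08 on the log2 scale. PLK1 fell by 0.76 ± 0.09 and 1.03 ± 0.09, and SKP2 in 2102 EP (-0.91 ± 0.23). USP28 fell by 0.69 ± 0.12 and 0.93 ± 0.09 and CIP2A by 0.45 ± 0.10 and 0.82 ± 0.10. FBXW7, the ligase that marks MYC proteins for degradation, did not pass in either (0.14 ± 0.09 and -0.08 ± 0.09). GSK3B, a kinase that marks MYC for that ligase, was called higher in both lines (0.30 ± 0.10 and 0.33 ± 0.09). In 2102 EP it was not called once replicate 1 or 2 of DMSO was left out.

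Of 10 co-activators and partners of MYC, WDR5 (-0.76 ± 0.10 and -0.60 ± 0.10), a subunit of histone methyltransferase complexes, and RUVBL1 (-0.47 ± 0.09 and -0.57 ± 0.09), an ATPase, fell in both lines. KAT5 rose in TCam-2 (0.51 ± 0.10) and EP400 in 2102 EP (0.34 ± 0.11, edgeR adjusted p = 0.0171). EP400 was not called once replicate 1 of I-BRD9, or replicate 1 or 2 of DMSO, was left out. In each line 1 of the 10 was called higher and 2 lower. Of all genes 18.2% were called higher and 18.6% lower in 2102 EP, and 15.3% and 16.5% in TCam-2. The counts of co-activators and partners therefore lie near those of all genes, and the same shares apply to the co-repressors. Of 8 co-repressors of MXD and MNT, HDAC2 (-0.56 ± 0.07), SIN3B (-0.46 ± 0.11) and HDAC1 (-0.45 ± 0.08) fell in 2102 EP. In TCam-2 HDAC1 fell (-0.24 ± 0.08, edgeR adjusted p = 0.0181; not called once replicate 3 of I-BRD9, or replicate 1 or 2 of DMSO, was left out), and SAP30 rose (1.51 ± 0.31). In 2102 EP SAP30 had 15.5 CPM with DMSO and 24.5 CPM with I-BRD9, without overlap (0.65 ± 0.26, edgeR adjusted p = 0.0682). No co-repressor was called higher there, but 1 was under 8 alternatives. The difference between the lines passed for HDAC2 (0.47 ± 0.10, edgeR adjusted p = 0.00249). SIN3A did not pass in either line (0.02 ± 0.11 and -0.05 ± 0.11).

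Partners of MGA in PRC1.6 moved in both directions. Of 10 genes, 2 rose and 5 fell in 2102 EP and 1 rose and 3 fell in TCam-2. Of all genes 18.2% rose and 18.6% fell in 2102 EP and 15.3% and 16.5% in TCam-2, so the counts of rises lie near those of all genes. The medians were -0.23 and -0.20. The 5 became 3 once replicate 2 of I-BRD9 or replicate 1 of DMSO was left out. YAF2, an adaptor of Polycomb complexes, rose from 6.33 to 21.1 CPM in 2102 EP (1.74 ± 0.15) and stood at 26.9 and 28.7 CPM in TCam-2 (0.09 ± 0.13), with a called difference of -1.65 ± 0.19 (edgeR adjusted p = 2.44e-06). RING1, a Polycomb ubiquitin ligase, rose in both lines (1.14 ± 0.11 and 0.65 ± 0.10). PCGF6, the subunit that defines PRC1.6, fell in 2102 EP (-1.09 ± 0.27) from 8.10 to 3.77 CPM, as did TFDP1 (-0.64 ± 0.13), CBX3 (-0.57 ± 0.07), TFDP2 (-0.30 ± 0.10) and RNF2 (-0.30 ± 0.11). TFDP2 (-0.86 ± 0.10), TFDP1 (-0.58 ± 0.12) and CBX3 (-0.20 ± 0.07) fell in TCam-2, and the difference passed for TFDP2 (-0.55 ± 0.14, edgeR adjusted p = 0.0078). Of 16 germ line genes that PRC1.6 is known to silence, 13 did not reach the low-count filter, and DAZL, SLC25A31 and TEX101 had no count in any library. Of the 3 tested, TDRD12, a piRNA pathway gene, fell in 2102 EP from 2.41 to 0.639 CPM (-1.87 ± 0.28) and in TCam-2 from 118 to 87.9 CPM (-0.43 ± 0.09). TAF7L rose in 2102 EP (1.65 ± 0.54, edgeR adjusted p = 0.0188) and was not called there once replicate 2 of DMSO, or replicate 1 or 3 of I-BRD9, was left out. TDRKH did not pass in either line.

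The genes whose levels followed each MYC gene most closely over the 12 libraries were ranked by Pearson r of log2 CPM among 9566 genes with a symbol and at least 10 CPM in some group. The 12 libraries fall into 4 groups and share their line and treatment within a group, and no test was made. For MYCN they were TBC1D23 (r = 0.983), DPPA4 (0.973) and DNMT3L (0.972). DPPA4, a gene of pluripotent cells, had 334.2 and 70.2 CPM in 2102 EP and 164.9 and 72.4 CPM in TCam-2, with DMSO and I-BRD9. DNMT3L, a cofactor of DNA methylation, had 52.0 and 3.69 CPM in 2102 EP and 14.0 and 4.15 CPM in TCam-2. TBC1D23 had 51.1 and 13.4 CPM in 2102 EP and 27.6 and 12.7 CPM in TCam-2. Like MYCN, these genes were highest in 2102 EP with DMSO and similar in the 2 I-BRD9 groups. That order follows from choosing them by their likeness to MYCN in the same libraries. For MYCL the nearest were SNRPD1 (0.978), CDC42EP4 (0.974) and VASH2 (0.970), and for MYC HADHB (0.871), CTNNBIP1 (0.866) and SGPP1 (0.854), with lower values.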

How the data were processed

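The authors deposited estimated counts per gene, for 12 libraries, which were prepared by Lexogen QuantSeq 3′ chemistry per the labels' protocols. Salmon 1.9.0 made them, per the submitters' processing notes and the table's name, and the notes also list Trim Galore, STAR 2.7.11b, R 4.2.0, DESeq2 and the build GRCh38. The annotation, strand setting and step order were not given in the sources used here. Counts off a whole number by over 0.01 were taken as holding reads shared between genes.

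After rounding, edgeR 4.0.16 (R 4.3.3) was run on them. TMM scaling, filterByExpr by group and 1 quasi-likelihood fit (glmQLFit, robust) with 4 group means to all 12 libraries left 8 residual degrees of freedom, which also set the 95% intervals. The test itself adds prior degrees of freedom shared across genes, so the intervals are wider than the test would give. The 5 contrasts were tested with Benjamini-Hochberg adjustment over 15614 genes, with calls at adjusted p below 0.05. The ± of a log2 fold change is its SE, taken as the size of the change divided by the square root of the test's F statistic. The ± of a CPM value is the SD. The precision of low counts is limited by counting error.

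Same-numbered replicates did not deviate together (18 pairs, r from -0.12 to 0.16, 4 over 0.1), so no block was used. The members and lists were chosen with earlier results of these data known. All 10 members, the MLX arm and its targets are named, and of other lists up to 4 called genes per line with the largest changes and 2 in the difference. Genes named outside that rule (NCL, FBL, ODC1, CAD, SIN3A, FBXW7, CIP2A, GSK3B, TFRC, TDRKH, NDRG2, GADD45A, RNF2 and others that complete a small count) were chosen after their values were seen. Of the lists, 1 gene is not reported here. Gene positions came from GENCODE 29 on GRCh38, which held 92.1% of the gene identifiers, and promoters from RefSeq on GRCh38.p14. The procedure was also run on simulated counts that had the same spread for all genes, so its error rates in these data were not measured. Alternatives were other scalings, DESeq2 1.42.0, limma 3.58.1 (voom), no filter, blocks, fits on 6 libraries, and each library left out.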

Additional observations from a re-analysis of the deposited data

Results flagged for a closer look

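The following 3 genes of the network responded differently in the lines, by the test of the difference itself (edgeR's quasi-likelihood test, adjusted over all genes; 13.1% of all genes tested differed, and 2 of the 10 members did). MYCN fell less in TCam-2, with a difference of 0.90 ± 0.20 (TCam-2 minus 2102 EP, log2 scale, adjusted p = 0.00416). It was lower with I-BRD9 in all 3 libraries of both lines. MXD4 rose less in TCam-2, with a difference of -1.16 ± 0.16 (adjusted p = 1.60e-05), and was higher with I-BRD9 in all 3 libraries of both lines. MLXIP had a difference of -0.56 ± 0.14 (adjusted p = 0.0103), with means of 68.2 and 83.8 CPM in 2102 EP and 69.5 and 58.1 CPM in TCam-2 (DMSO and I-BRD9). Groups of 3 libraries are too small for the check of single outlying libraries.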

How the results depend on the processing

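MYCN, MYCL, MXD4 and MXI1 kept their direction and their call in both lines in 160 of 160 values over 20 alternatives a comparison. Some of these leave out a library of the other line. Such a fit can alter the comparison only through scaling, the filter and the shared estimate of the spread. With the replicate number as a block, 4, 4, 2, 6 and 5 members were called (2102 EP, TCam-2, their difference, the lines with DMSO, the lines with I-BRD9), against 4, 4, 2, 6 and 6 without it, and 5512, 4714, 1836, 9598 and 9574 of all genes. The 6 members called between the lines with I-BRD9 ranged from 3 to 6 when single libraries were left out. Values near 0 changed sign. For MAX in 2102 EP it was 0.00035 with upper-quartile scaling and -0.097 to 0.022 without single libraries. For the MLXIPL difference it was 0.32 with limma voom and -0.67 to 0.65 without single libraries. For MYC between the lines with I-BRD9 (0.0019) it was -0.014 with DESeq2 size factors, -0.022 with upper quartile, -0.012 with DESeq2, -0.012 unfiltered and -0.0097 with the replicate block, and -0.29 to 0.16 without single libraries. Without single libraries, in 2102 EP MXD1 ran from -0.45 to 0.90 and MNT from -0.057 to 0.23. The differences ran from -0.41 to 0.083 for MYC, -0.56 to 0.79 for MXD1, -0.64 to 0.17 for MXD3 and -0.19 to 0.13 for MXI1. Between the lines, values ran from -0.084 to 0.39 (MYC, DMSO), -0.049 to 0.12 (MLXIP, DMSO) and -0.045 to 0.14 (MYCN, I-BRD9). The cause was not tested. MXD1 and MLXIPL had as few as 32.0 and 23.0 counts over a group, which limits their precision. Scaling moved the median of all genes by at most 0.04.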
